A study of Mus musculus with 29 samples.

Results

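Livers of male mice held on a calorie-restricted diet labelled lard were compared with livers of control mice, over all genes. The comparison takes 4 lard liver libraries and 3 control liver libraries, 7 of the 29 libraries of the series, chosen by their tissue and diet labels and joined gene by gene through the Ensembl identifier. The series sequenced messenger RNA of liver and hindlimb muscle from 4 diets, labelled lard, fish, soy and control, in male C57BL/6 mice, an inbred laboratory strain. All animals were bought at 14 weeks of age, ate commercial chow at first and were assigned to their diets at random at 4 months of age. Lard mice received 60% of their free intake (8.6 kcal per day), and so did fish and soy mice. Control mice received 95% of their free intake (13.6 kcal per day), a small restriction against weight gain. The lard and control groups therefore differ in calories and in diet label at once, and the effects of these 2 differences cannot be told apart in this comparison. No source used here gives the time on the diets or the hour of tissue collection. A control liver from mouse 1071 was discarded by the authors because it clustered with another group and had RNA of lower integrity, which left 3 control livers against 4 lard livers.

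The liver makes much of the body's cholesterol, fat, glucose and plasma protein, and food restriction is known to shift all of these pathways. Cholesterol and fatty acid synthesis are driven by the SREBP transcription factors, which answer to sterols and insulin. Mouse liver is also a sexually dimorphic organ. In males, widely spaced pulses of growth hormone activate the factor STAT5B and sustain male-biased genes such as those of the major urinary proteins, while the steadier hormone pattern of females sustains female-biased genes such as Cux2 and several cytochrome P450 genes. Growth hormone, insulin and IGF-1 signalling are all known to be sensitive to feeding.

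Exon reads numbered 11315231 to 21278699 in the 7 libraries. In the first principal component of the 7 livers, with 39.1% of the variance, lard livers had scores of -28.9 to -5.77 and control livers of 21.7 to 26.5. The summed level of 9 hepatocyte marker genes was 140965 to 169094 CPM (exon reads per 1e6 exon reads of the library, TMM-normalised) in lard livers and 99821 to 123171 CPM in control livers, and all 9 were expressed in every group. These sums did not overlap, and of the 9 markers Cps1 alone passed the test below. Erythroid markers summed to 396 to 2363 CPM in lard livers, the highest in mouse 1130, and to 499 to 730 CPM in control livers. Kupffer cell and macrophage markers summed to 354 to 569 CPM in lard livers and 448 to 594 CPM in control livers, and stellate cell markers to 476 to 612 CPM in lard livers and 504 to 672 CPM in control livers. B and plasma cell markers summed to 14.0 to 36.6 CPM in lard livers and 32.5 to 84.5 CPM in control livers. On the lists of other cell types no tested member passed. Few were tested on some: 2 of 7 adipocyte, 2 of 10 neutrophil, 3 of 10 T and NK cell and 1 of 10 pancreatic acinar markers. What part these shifts had in the results below was not tested, and in bulk tissue fewer cells of a type and less RNA per cell cannot be told apart.

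Genes that separate male from female liver were among those that changed in lard livers. Of the male-biased genes 13 of 36 tested, led by the major urinary proteins, were lower in lard livers, and of the female-biased genes 12 of 41, Cyp2b13, Cyp2a4 and Cux2 among them, were higher. Of 27 cholesterol synthesis genes 5 were higher, together with Lpin1, Elovl6 and the leptin receptor Lepr. Across 12315 genes tested, 166 had an adjusted p under 0.05 (Benjamini-Hochberg) in edgeR's quasi-likelihood test, which is 1.35% of those tested. Of these, 62 were higher (0.503%) and 104 lower (0.844%) in lard livers, and 92 differed by more than 2-fold. All 166 had CPM ranges that did not overlap between the groups, which held for 14.5% of all genes tested. The median log2 fold change over all genes tested was -0.002.

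The number of genes past the threshold depended on single libraries. It was 26 without lard liver 1100, 60 without lard liver 1101, 110 without lard liver 1130, 32 without control liver 1121 and 65 without control liver 1120. Without lard liver 1102 it was 200 and without control liver 1095 it was 169. Of the 166 genes, 22 passed in each of the 7 removals and 12 passed in every removal and every other setting tried. None changed sign. With exon read totals as library sizes and no composition factor, 221 genes passed, 43 higher and 178 lower, and that scaling moved the median of all genes by -0.09 on the log2 scale.

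**Figure D1:**
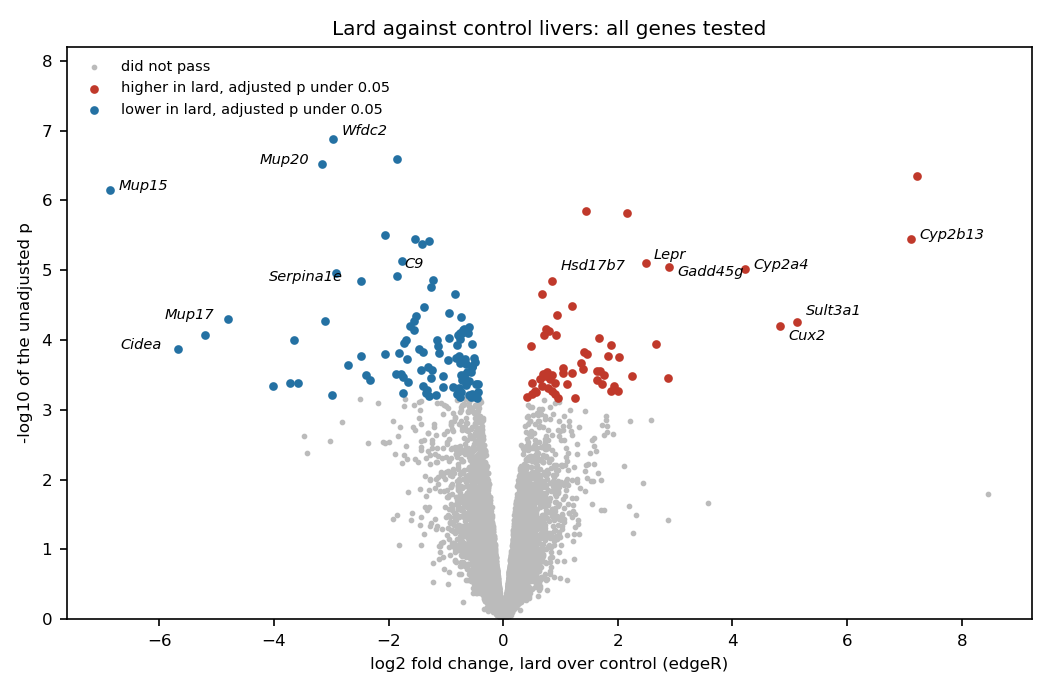
Each point is 1 of the 12315 genes tested in lard against control livers, with the log2 fold change on the x axis and -log10 of the unadjusted p on the y axis. The 62 red points (higher in lard livers) reach far to the right with Cyp2b13 and Sult3a1, and the 104 blue points (lower in lard livers) far to the left with Mup15 and Cidea.

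Female-biased genes that passed were higher in lard livers. Of 41 tested, 12 passed and all 12 were higher, beside 0.503% of all genes tested that were called higher. The median log2 fold change of the 41 was 0.61, beside -0.002 over all genes tested. Coordinates below are those of the deposited tables, on GRCm38. Values are given by library, for lard livers of mice 1100, 1101, 1102 and 1130 and control livers of mice 1095, 1120 and 1121.

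Cytochrome P450 genes of the Cyp2 families, which oxidise steroids and foreign compounds, were among them. Cyp2b13 (ENSMUSG00000040583, chromosome 7, 26061495 to 26096196) had 136, 149.6, 32.3 and 209 CPM in lard livers, against 1.54, 0.209 and 1.003 CPM in control livers. Every lard liver was above every control liver, although lard liver 1102 held less than the other lard livers. The means were 132 ± 73.5 CPM in lard livers (SD, n = 4) and 0.916 ± 0.668 CPM in control livers (SD, n = 3), a log2 fold change of 7.12 ± 0.76 (SE; edgeR adjusted p = 0.00432). Cyp2a4, a testosterone hydroxylase (ENSMUSG00000074254, chromosome 7, 26307190 to 26315088), had 160.3, 263, 57.97 and 245 CPM in lard livers, against 6.91, 11.95 and 10.2 CPM in control livers. Its log2 fold change was 4.22 ± 0.50 (adjusted p = 0.00732). Of the Cyp2a4 reads 87.9% mapped uniquely, and near-identical Cyp2a genes may share the rest.

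Cux2, a homeobox repressor that in female liver holds down male-biased genes, was 9.73, 31.4, 14.6 and 4.87 CPM in lard livers, against 0.512, 0.556 and 0.501 CPM in control livers (ENSMUSG00000042589, chromosome 5, 121857963 to 122050102). Its levels in lard livers varied several-fold, yet the lowest was well above every control liver. The log2 fold change was 4.83 ± 0.72 (adjusted p = 0.0213). Sult3a1, a sulfotransferase, rose by 5.13 ± 0.75 on the log2 scale (adjusted p = 0.0198), and Sult2a7, of the bile acid and steroid sulfotransferase family, by 2.67 ± 0.43 on the log2 scale (adjusted p = 0.024). Sult3a1 was at 6.52 ± 4.19 CPM in lard livers (SD, n = 4) and 0.174 ± 0.0979 CPM in control livers (SD, n = 3), and Sult2a7 at 12.3 ± 7.31 CPM in lard livers (SD, n = 4) and 1.89 ± 0.474 CPM in control livers (SD, n = 3). Fmo2, a flavin monooxygenase, had 222, 273, 198 and 191 CPM in lard livers, against 22.9, 71.4 and 68.1 CPM in control livers. That is a log2 fold change of 2.02 ± 0.34 (adjusted p = 0.0293), with control liver 1095 lowest of all. Slc22a26, an organic anion transporter gene, had a log2 fold change of 2.01 ± 0.39 (adjusted p = 0.0457).

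Hamp2, a hepcidin paralogue, was 114, 122, 51.8 and 118 CPM in lard livers, against 34.2, 29.2 and 31.3 CPM in control livers, a log2 fold change of 1.68 ± 0.26 (adjusted p = 0.0223). Lard liver 1102 was lower than the other lard livers, which were close together, but still above the control livers. Hamp2 was the only call on the iron handling list, whose median was -0.16. The hepcidin gene Hamp did not pass, at a log2 fold change of 0.25 ± 0.26 (adjusted p = 0.692), and its groups overlapped. In the RefSeq annotation of GRCm38.p6 the Hamp2 promoter (chr7:30924132-30924431, minus strand, 250 bases before to 50 after the gene's start) holds 1 match to the STAT5-type motif TTCNNNGAA, searched on both strands. It is shown because STAT5B is the textbook growth hormone effector in this organ, with the match, at position -94 from the start, in capitals.
Hamp2: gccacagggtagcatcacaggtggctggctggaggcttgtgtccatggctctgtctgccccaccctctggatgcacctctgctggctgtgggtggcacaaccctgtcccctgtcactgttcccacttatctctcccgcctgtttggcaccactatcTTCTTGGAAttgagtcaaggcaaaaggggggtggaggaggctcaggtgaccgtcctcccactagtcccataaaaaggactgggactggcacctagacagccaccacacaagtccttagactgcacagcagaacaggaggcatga
Among the 32 female-biased genes with a promoter in that table, 6 (18.8%) held this motif, and so did 3 of 27 male-biased genes (11.1%), beside 8.39% of 9644 tested genes. Of the genes past the threshold, 4 of 48 higher in lard livers (8.33%) and 8 of 82 lower in lard livers (9.76%) held it. A match describes letters in this window only, and CACGTG and TCACNCCAC, the other motifs searched, had no match in the Hamp2 window. Exons of Gm44662 on the opposite strand cover 15.3% of the exon bases of Hamp2, and no source used here says whether counting used strand.

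Cyp2b13 and Cyp2a4 passed in all 7 removals of 1 library, with an adjusted p of 0.0333 and 0.0462 at most, though Cyp2b13 was at 0.0584 by limma-voom. The count of 12 female-biased genes fell to 4 without lard liver 1100, 7 without lard liver 1101, 4 without control liver 1120 and 5 without control liver 1121. It was 6 when all 15 livers shared 1 fit and 7 by limma-voom. In the fit of 15 livers Cux2 (adjusted p = 0.0726), Sult2a7 (0.0797), Hamp2 (0.126) and Slc22a26 (0.215) did not pass, while Sult3a1 and Fmo2 did. By limma-voom Cux2 (0.0941), Sult3a1 (0.0584) and Slc22a26 (0.0549) did not pass, while Sult2a7, Fmo2 and Hamp2 did. With control, lard and fish livers in 1 fit Cux2 was at 0.0756. Calls in the other direction appeared too, with 2 lower genes beside 10 higher without control liver 1095, 2 beside 12 without lard liver 1102, and 3 beside 15 by the DESeq2 Wald test. Where they did not pass without 1 of these libraries or without control liver 1095, Cux2, Sult3a1, Sult2a7, Fmo2 and Hamp2 had an adjusted p of 0.0503 to 0.101. Slc22a26 passed only without lard liver 1102 or control liver 1095, and had an adjusted p of 0.0709 to 0.136 in the other removals.

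**Figure D2:**
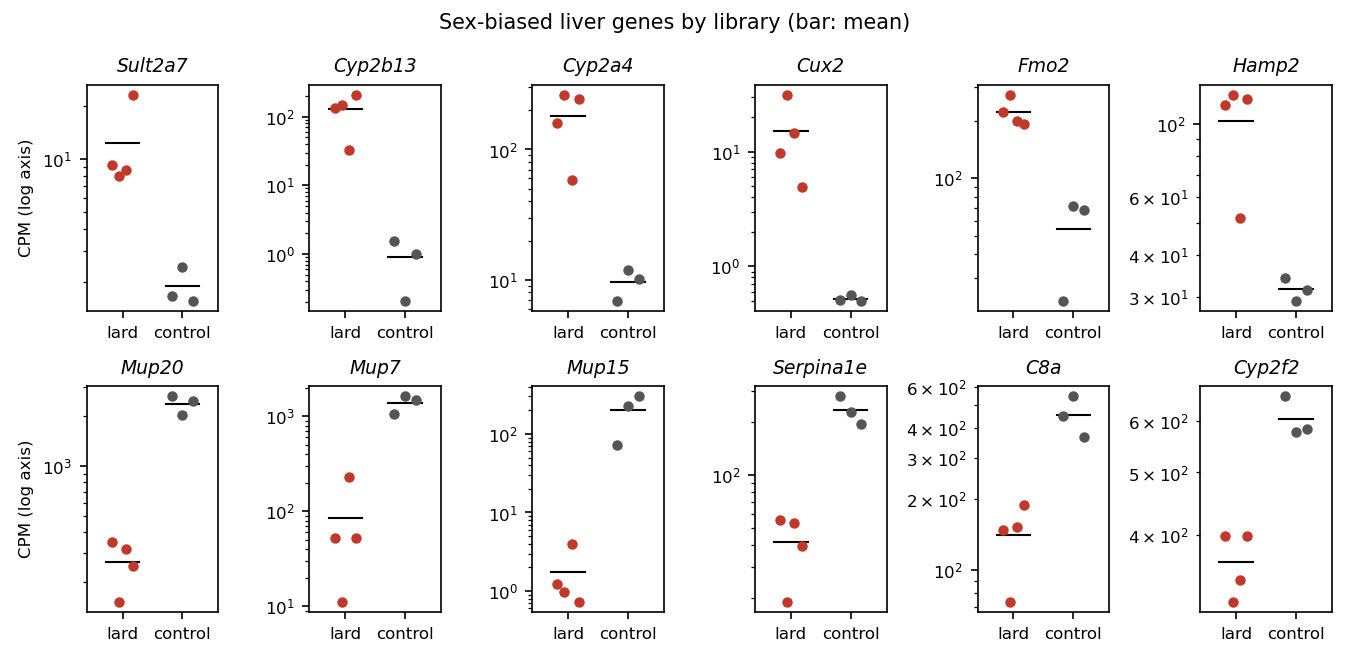
TMM-normalised CPM on log axes (y), with 1 point per library and a bar at the mean, for 4 lard livers (left, red) and 3 control livers (right, grey). The 6 female-biased genes of the upper row lie higher in every lard liver than in any control liver, and the 6 genes of the lower row lie lower.

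Male-biased genes that passed were lower in lard livers. Of 36 tested, 13 passed and all 13 were lower, beside 0.844% of all genes tested that were called lower. The median log2 fold change over the 36 was -1.62. Among all genes called, 8 were Mup genes, many of which share reads. The Mup members of this list are therefore not independent of each other, and neither count nor median was split by family. Per library, the mean log2 CPM of the list was 5.17, 3.97, 5.71 and 5.08 in lard livers, against 6.76, 7.04 and 6.80 in control livers. The female-biased list stood at 4.91, 5.03, 4.72 and 5.09 in lard livers, against 3.23, 3.86 and 4.02 in control livers. Neither list overlapped between the diets. Lard liver 1101 was lowest for the male-biased list, and lard liver 1102 was highest for it and lowest for the female-biased list.

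Mup genes encode the major urinary proteins, pheromone carriers that male liver secretes in quantity. Their 21 genes on chromosome 4 summed to 7941, 2594, 9102 and 5673 CPM in lard livers, against 15914, 18721 and 21306 CPM in control livers. Every lard liver was below every control liver. The means were 6327 ± 2867 CPM in lard livers (SD, n = 4) and 18647 ± 2697 CPM in control livers (SD, n = 3), or 0.613% ± 0.273 of exon reads in lard livers and 1.93% ± 0.220 in control livers. The mean log2 difference was -1.70, given as a description. Mup genes are near-identical, so reads are shared between them, but uniquely mapped reads alone gave 2003 to 4470 CPM in lard livers and 8062 to 9652 CPM in control livers.

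Mup20, the urinary protein also called darcin, is distinct enough that 95.6% of its reads were unique (ENSMUSG00000078672, chromosome 4, 62050234 to 62054158). It had 348, 152, 316 and 252 CPM in lard livers, against 2638, 2033 and 2463 CPM in control livers, a log2 fold change of -3.16 ± 0.26 (adjusted p = 0.00124). The groups were far apart, though lard livers ranged from 152 to 348 CPM. Mup7 had 52.6, 11.1, 228 and 51.99 CPM in lard livers, against 1049, 1629 and 1498 CPM in control livers, a log2 fold change of -4.02 ± 0.78 (adjusted p = 0.0413). The spread among lard livers was wide, from 11.1 CPM in liver 1101 to 228 CPM in liver 1102. Mup15 had the largest fall among the Mup genes that passed, with 1.23, 0.980, 3.97 and 0.722 CPM in lard livers and 72.3, 226 and 301 CPM in control livers. Its log2 fold change was -6.85 ± 0.61 (adjusted p = 0.00177), but 5.8% of its reads were unique, so how reads were divided among the paralogues bears on its size. The same holds for Mup14 at -5.21, Mup17 at -4.81, Mup12 at -3.72 and Mup1 at -3.59, whose unique reads were 7.9% to 21.6%.

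Serpina1e, a male-biased member of the alpha-1-antitrypsin protease inhibitor family, had 55.2, 18.8, 53.4 and 39.2 CPM in lard livers, against 279.7, 227 and 193 CPM in control livers (ENSMUSG00000072849, chromosome 12, 103946931 to 103958975). The groups did not overlap, and the log2 fold change was -2.49 ± 0.31 (adjusted p = 0.00833). Cyp4a12b, a fatty acid hydroxylase of the Cyp4a cluster, fell by 2.98 ± 0.60 on the log2 scale (adjusted p = 0.0481), with 3.62 ± 3.802 CPM in lard livers (SD, n = 4) and 28.4 ± 15.7 CPM in control livers (SD, n = 3). Cyp2f2, a lung and liver P450, fell by 0.75 ± 0.11 on the log2 scale (adjusted p = 0.0216), a small change that was even across libraries, with 398, 315, 340.0 and 398 CPM in lard livers, against 656, 577 and 585 CPM in control livers. Exons of Gm15883 on the opposite strand cover 13.5% of its exon bases.

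The complement genes C9, C8a and C6 fell, all of them components of the terminal membrane attack pathway. C8a, on the male-biased list too, had 147, 73.1, 152 and 189 CPM in lard livers, against 451, 547 and 367 CPM in control livers, a log2 fold change of -1.70 ± 0.27 (adjusted p = 0.0223). C9 (ENSMUSG00000022149, chromosome 15, 6445327 to 6498751) had 86.6, 60.6, 84.6 and 85.1 CPM in lard livers, against 215, 154 and 181 CPM in control livers, a log2 fold change of -1.22 ± 0.15 (adjusted p = 0.00833). C6 had 40.7, 30.6, 64.1 and 40.8 CPM in lard livers, against 96.1, 92.5 and 84.8 CPM in control livers, a log2 fold change of -1.06 ± 0.20 (adjusted p = 0.0423). In each of these genes lard liver 1101 was the lowest of all 7 and no lard liver reached a control liver. Groups did not overlap for 14.5% of all genes tested. Of 26 complement genes tested these 3 passed, beside 0.844% of all genes tested that were called lower. The list's median was -0.18.

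Mup20, Mup15, Serpina1e and C9 passed in all 7 removals, with an adjusted p of at most 0.00612, 0.0159, 0.0364 and 0.0425. Serpina1e did not pass when all 15 livers shared 1 fit (adjusted p = 0.148) or when control, lard and fish livers did (0.107). The count of 13 male-biased genes fell to 2 without lard liver 1100, 8 without lard liver 1130, 4 without control liver 1120 and 2 without control liver 1121, and was 5 when all 15 livers shared 1 fit. Without lard liver 1100 the adjusted p was 0.0717 for Cyp2f2, 0.0855 for Mup17, 0.0908 for Mup14 and C8a, 0.147 to 0.155 for Mup1, Mup7, Mup12 and C6, and 0.176 for Cyp4a12b. C8a and Mup14 also did not pass without control liver 1120 or 1121, nor did Mup1, Mup7, Mup12, C6 and Cyp4a12b (adjusted p up to 0.132). Without lard liver 1130 these last 5 were at 0.0785 to 0.0897. C6 and Cyp4a12b were at 0.0707 and 0.0886 without lard liver 1101, and C6 and Mup7 at 0.0743 and 0.0515 without control liver 1095. Cyp2f2 had an adjusted p of 0.0503 to 0.0709 without lard liver 1101 or control liver 1120 or 1121, and Mup17 of 0.0501 without control liver 1121. The complement count was 1 without lard liver 1100 or control liver 1120 or 1121, and 2 without lard liver 1101 or 1130 or control liver 1095.

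Cholesterol synthesis genes were higher in lard livers. Of 27 tested 5 passed, all higher, beside 0.503% of all genes tested that were called higher. A log2 fold change above 0 was found for 26 of 27, with a median of 0.87. Hsd17b7, a 3-ketosteroid reductase late in the pathway (ENSMUSG00000026675, chromosome 1, 169949535 to 169969241), had 95.8, 113, 116 and 107 CPM in lard livers, against 53.00, 63.9 and 61.5 CPM in control livers, a log2 fold change of 0.85 ± 0.11 (adjusted p = 0.00833). Both groups were tight and did not overlap. Pmvk, phosphomevalonate kinase, rose by 1.04 ± 0.19 on the log2 scale (adjusted p = 0.0361), with 72.5 ± 11.7 CPM in lard livers (SD, n = 4) and 35.1 ± 9.75 CPM in control livers (SD, n = 3). Hmgcs1, an early synthase of the pathway, rose by 0.95 ± 0.19 on the log2 scale (adjusted p = 0.0499), with 242 ± 31.2 CPM in lard livers (SD, n = 4) and 125 ± 38.2 CPM in control livers (SD, n = 3), close to the threshold.

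Promoters of 2 of these genes are shown for the motifs of the SREBP and E-box type they hold, in capitals. Both are from RefSeq on GRCm38.p6 and run from 250 bases before to 50 after the start. Hmgcs1 (chr13:119690101-119690400, plus strand) holds TCACCCCAC, a match to the sterol response element type TCACNCCAC, at position -137 from the start. Hsd17b7 (chr1:169969156-169969455, minus strand) holds the E-box CACGTG at position -143.
Hmgcs1: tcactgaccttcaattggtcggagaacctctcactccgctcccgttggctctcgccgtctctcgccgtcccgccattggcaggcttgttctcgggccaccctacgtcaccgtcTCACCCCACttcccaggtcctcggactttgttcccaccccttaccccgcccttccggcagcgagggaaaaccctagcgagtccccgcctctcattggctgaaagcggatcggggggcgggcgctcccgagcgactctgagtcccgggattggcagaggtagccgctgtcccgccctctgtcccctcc
Hsd17b7: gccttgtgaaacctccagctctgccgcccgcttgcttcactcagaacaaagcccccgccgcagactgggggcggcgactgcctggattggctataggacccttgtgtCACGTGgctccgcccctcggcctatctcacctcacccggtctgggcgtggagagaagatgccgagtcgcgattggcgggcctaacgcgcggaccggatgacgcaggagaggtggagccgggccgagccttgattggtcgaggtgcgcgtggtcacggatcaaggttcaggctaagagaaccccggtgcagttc
Searched on both strands, TCACNCCAC was in 1 of 19 cholesterol synthesis genes with a promoter in the table (5.26%), beside 1.43% of tested genes. CACGTG was in 3 of the 19 (15.8%), beside 11.7% of tested genes. These shares describe the letters in these windows and say nothing of binding.

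Hsd17b7 passed in all 7 removals of 1 library, with an adjusted p of at most 0.0462. The count of 5 higher genes was 3 without lard liver 1100, lard liver 1101 or control liver 1121, and 2 when all 15 livers shared 1 fit, where Hsd17b7 had an adjusted p of 0.067. Without control liver 1095 or 1121, and by the DESeq2 Wald test (13 higher), 1 gene of the list was called lower. Exons of Gm48342 on the opposite strand cover 12.1% of the exon bases of Hmgcs1.

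Fatty acid and triglyceride synthesis genes changed less evenly. Of 33 tested 2 were higher and 1 lower, with a median of 0.31. Over all genes tested 0.503% were called higher and 0.844% lower, so such small counts say little of the list. Lpin1, a phosphatidate phosphatase that is also a fasting-responsive coactivator, had 1415, 1248, 1029.8 and 438 CPM in lard livers, against 166, 153 and 332 CPM in control livers (ENSMUSG00000020593, chromosome 12, 16535669 to 16589770). Lard liver 1130 was much lower than the other 3 but still above every control liver, and the log2 fold change was 2.25 ± 0.41 (adjusted p = 0.0365). Elovl6, which elongates palmitate, had 311, 494, 339 and 349.7 CPM in lard livers, against 142, 204 and 197 CPM in control livers, a log2 fold change of 1.04 ± 0.18 (adjusted p = 0.0351). Mogat1, a monoacylglycerol acyltransferase, fell by 1.78 ± 0.33 on the log2 scale (adjusted p = 0.0361), with 1.14 ± 0.359 CPM in lard livers (SD, n = 4) and 3.93 ± 1.41 CPM in control livers (SD, n = 3). The fatty acid synthase gene Fasn had a log2 fold change of 1.72 (adjusted p = 0.074) and Acly, ATP citrate lyase, of 1.17 (adjusted p = 0.0581), so neither passed. Srebf1 stood at 0.63 (adjusted p = 0.482) and Scd1, the stearoyl-CoA desaturase, at -0.18 (adjusted p = 0.801). These last 4 were named after their values were seen.

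Lipid droplet genes leaned the other way, with 2 of 23 lower, 0 higher and a median of -0.36. The share called lower over all genes tested was 0.844%. Cidea, a lipid droplet fusion protein of brown fat and steatotic liver, had 0, 0, 0.142 and 0.0903 CPM in lard livers, against 0.640, 3.48 and 4.76 CPM in control livers. Lard livers were at or near 0, while control liver 1095 was nearer to them than the other controls. The log2 fold change was -5.67 ± 0.93 (adjusted p = 0.026), on few reads in every library. The other gene was Mogat1, which is on both lists. Lpin1 did not pass without lard liver 1100 or 1101 or any 1 control liver (adjusted p = 0.0572 to 0.113), and Elovl6 not without lard liver 1100 or 1130 or any 1 control liver (0.0528 to 0.101). Without lard liver 1102 the synthesis list had 6 higher and 2 lower genes, and without control liver 1095 the droplet list had 7 lower. Cidea and Mogat1 had an adjusted p of 0.0517 to 0.132 without lard liver 1100, 1101 or 1130 or control liver 1120 or 1121.

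No member of the 52 PPARalpha targets and fatty acid oxidation genes passed the edgeR test, and their median was -0.25. At an unadjusted p under 0.05 there were 17, of which 16 were lower, beside 1943 of 12315 over all genes tested. The DESeq2 Wald test called 8 lower and 1 higher. Without lard liver 1102 edgeR called 6 lower, without control liver 1095 it called 1 lower, and with control, lard and fish livers in 1 fit it called 2 lower. PPARalpha is the receptor that turns on fat burning in fasted liver. The member of smallest p was Crot, carnitine O-octanoyltransferase of the peroxisome, with 256, 249.8, 409.6 and 239.7 CPM in lard livers, against 804, 483 and 537 CPM in control livers. Its log2 fold change of -1.08 ± 0.23 (adjusted p = 0.0542) missed the threshold. The groups did not overlap, which held for 14.5% of all genes tested. In all, 7 of the 52 genes had a log2 fold change above 0.

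**Figure D3:**
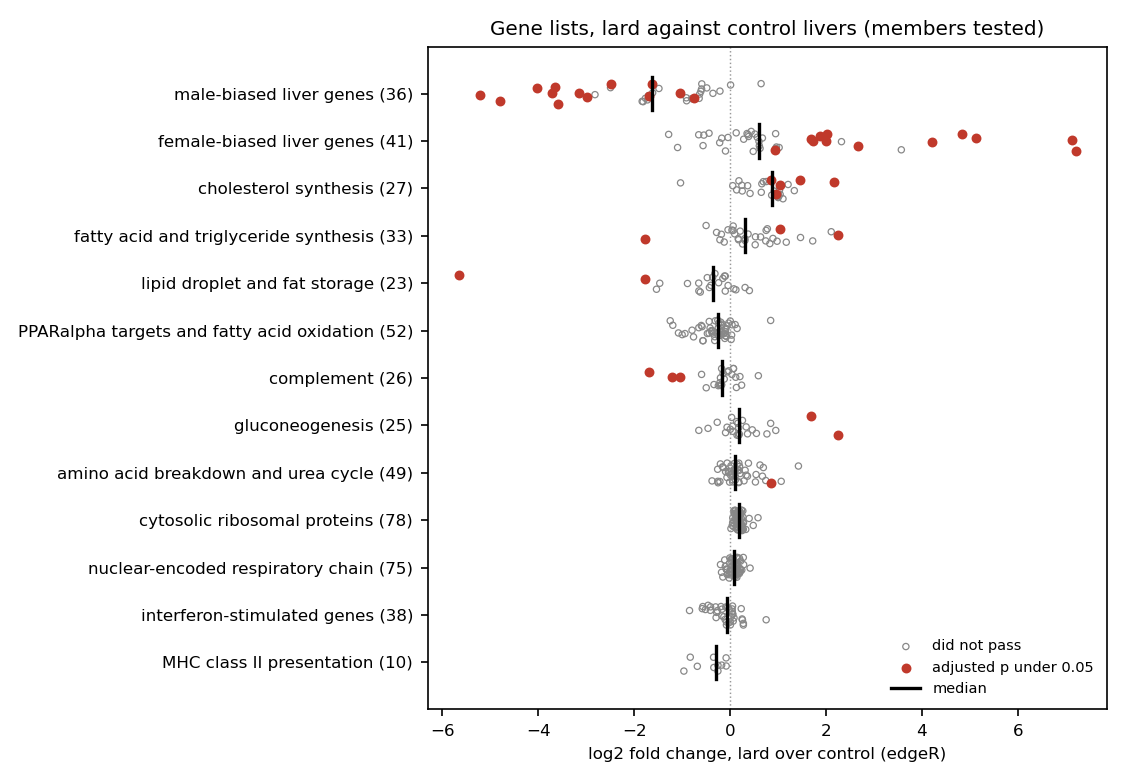
Log2 fold changes of lard over control livers (x axis) for the tested members of 13 gene lists (rows, number tested in brackets), with 1 point per gene, filled red where the adjusted p is under 0.05, and a black bar at the list median. The male-biased list has a median of -1.62, the female-biased list of 0.61 and cholesterol synthesis of 0.87, while ribosomal proteins sit in a narrow band with a median of 0.19 and no filled point.

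Single genes of hormone and nutrient signalling rose, where 1.35% of all genes tested passed in either direction. Lepr, the leptin receptor, whose short and soluble forms the liver makes, had 102, 135, 85.2 and 56.1 CPM in lard livers, against 19.3, 12.3 and 18.9 CPM in control livers (ENSMUSG00000057722, chromosome 4, 101717404 to 101815352). No lard liver came near a control liver, and the log2 fold change was 2.48 ± 0.29 (adjusted p = 0.00696). Igfbp1, an insulin-repressed binding protein of IGF-1, had 74.4, 114, 104 and 91.4 CPM in lard livers, against 14.7, 23.98 and 42.1 CPM in control livers, a log2 fold change of 1.83 ± 0.31 (adjusted p = 0.0287). Control liver 1121 was the highest of its group. These were the 2 of 31 genes of insulin, IGF and growth hormone signalling that passed, beside a list median of 0.01. Gadd45g, a stress and growth-arrest gene placed on the glucocorticoid list, had 60.3, 25.4, 24.4 and 40.6 CPM in lard livers, against 4.22, 5.07 and 5.89 CPM in control livers (ENSMUSG00000021453, chromosome 13, 51846678 to 51848468). Its log2 fold change was 2.89 ± 0.34 (adjusted p = 0.00732), the only call among 19 genes of that list.

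Enzymes of amino acid and glucose handling gave single calls. Over all genes tested 1.35% passed, so 1 call in a list of this size says little of its pathway. Got1, the cytosolic aspartate aminotransferase, had 718, 796, 533 and 628 CPM in lard livers, against 221, 104 and 294 CPM in control livers, a log2 fold change of 1.69 ± 0.31 (adjusted p = 0.0361). It was 1 of 2 calls among 25 gluconeogenesis genes, the other being Lpin1, and the list's median was 0.18. Cps1, the entry enzyme of the urea cycle, had 5723, 5797, 4021 and 4786 CPM in lard livers, against 3125, 2666 and 2674 CPM in control livers. All lard livers were above the control livers, with a log2 fold change of 0.84 ± 0.15 (adjusted p = 0.0361), the single call among 49 genes of amino acid breakdown and urea synthesis. Ppp1r3g, a glycogen-targeting subunit of protein phosphatase 1, rose by 1.39 ± 0.25 on the log2 scale (adjusted p = 0.0361), with 19.1 ± 4.67 CPM in lard livers (SD, n = 4) and 7.202 ± 2.71 CPM in control livers (SD, n = 3). It was the only call among 31 glycolysis and glycogen genes.

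Lepr and Gadd45g passed in all 7 removals, with an adjusted p of at most 0.0361 and 0.0389, but Gadd45g was at 0.137 when all 15 livers shared 1 fit. Igfbp1 was at 0.0601 to 0.0969 without lard liver 1100 or 1101 or control liver 1120, and at 0.0946 when all 15 livers shared 1 fit. Got1 was at 0.056 to 0.113 without lard liver 1100, 1101 or 1130 or control liver 1095. Without lard liver 1102 the amino acid list had 4 higher genes and the glycolysis list 2, without lard liver 1130 the glucocorticoid list had 3. Without control liver 1095 the glucocorticoid list had 1 higher and 2 lower genes, and the signalling list had 3 higher. Cps1 and Ppp1r3g were at 0.0517 to 0.137 without lard liver 1100, 1101 or 1130 or control liver 1120 or 1121.

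Bile acid and xenobiotic genes had few changes, given here beside the 1.35% of all genes tested that passed. Slc10a2, the sodium-dependent bile acid uptake carrier best known from ileum and bile ducts, had 4.47, 2.94, 3.76 and 4.06 CPM in lard livers, against 7.68, 11.5 and 10.6 CPM in control livers, a log2 fold change of -1.38 ± 0.19 (adjusted p = 0.016). Abcc3, which exports bile acid conjugates to blood, had 164, 189.8, 132 and 177 CPM in lard livers, against 300.5, 276 and 280.3 CPM in control livers, a log2 fold change of -0.79 ± 0.12 (adjusted p = 0.0216). Neither gene's groups overlapped. They were the 2 calls among 28 bile acid genes, whose median was -0.10. Among 63 genes of xenobiotic metabolism, Gstm3, a glutathione transferase, rose by 1.20 ± 0.22 on the log2 scale (adjusted p = 0.0361), while Aox1, an aldehyde oxidase, fell by 0.72 ± 0.11 on the log2 scale (adjusted p = 0.0216), as did Cyp2f2. Gclc, the catalytic subunit of glutamate-cysteine ligase in glutathione synthesis, had 134, 148, 152 and 148 CPM in lard livers, against 335, 279 and 219.8 CPM in control livers, a log2 fold change of -0.94 ± 0.13 (adjusted p = 0.0186). Lard livers were tight while control livers ranged more, and Gclc was the only call among 32 antioxidant genes. Slc10a2 was at 0.0627 without control liver 1121 and Gclc at 0.0781 without lard liver 1100. Abcc3 and Aox1 were at 0.0569 to 0.0855 without lard liver 1100 or control liver 1120, Abcc3 also at 0.0727 without control liver 1121 and Aox1 at 0.0601 without lard liver 1101. Without lard liver 1102 the xenobiotic list had 2 higher and 4 lower genes, and without control liver 1095 the antioxidant list had 3 lower. Gstm3 passed only without lard liver 1102, and was at 0.0574 to 0.131 in the other 6 removals.

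The smallest p of all genes belonged to Wfdc2, a secreted protease inhibitor-like protein (ENSMUSG00000017723, chromosome 2, 164562413 to 164568510). It had 1.23, 1.61, 1.63 and 1.08 CPM in lard livers, against 13.1, 8.06 and 11.5 CPM in control livers, a log2 fold change of -2.97 ± 0.22 (adjusted p = 0.00124). Slc35f2, a solute carrier, was at 0.393, 0.490, 1.28 and 0.632 CPM in lard livers, against 3.84, 6.39 and 5.26 CPM in control livers, a log2 fold change of -2.92 ± 0.35 (adjusted p = 0.00784). Osbpl3, an oxysterol-binding-protein relative, had 4.91, 5.11, 4.68 and 8.21 CPM in lard livers, against 9.41, 35.4 and 43.6 CPM in control livers. Control liver 1095 lay just above the highest lard liver, so its log2 fold change of -2.39 ± 0.44 (adjusted p = 0.0361) came mostly from the other control livers. Arntl, the BMAL1 clock activator, fell by 1.44 ± 0.26 on the log2 scale (adjusted p = 0.0361), with 0.662 ± 0.138 CPM in lard livers (SD, n = 4) and 1.84 ± 0.215 CPM in control livers (SD, n = 3), and was the only call among 23 clock genes. Postn, a matrix protein, rose by 0.80 ± 0.12 on the log2 scale (adjusted p = 0.0216) as the only call among 34 matrix genes, and Apom, an HDL apolipoprotein, by 0.41 ± 0.08 on the log2 scale (adjusted p = 0.0495) as the only call among 31 lipoprotein genes. A single call in lists of this size says little of the list, as 1.35% of all genes tested passed. Wfdc2 and Slc35f2 passed in all 7 removals, with an adjusted p of at most 0.00612 and 0.0388. Arntl and Apom passed in none of the 7 removals (0.0511 to 0.155), and Osbpl3 passed only without control liver 1095 (0.0525 to 0.13 in the others). Postn was at 0.0501 to 0.0855 without lard liver 1100 or control liver 1120 or 1121.

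Many pathways had no call. None passed among 38 acute phase and coagulation genes (median 0.04), 38 interferon-stimulated genes (-0.06), 10 MHC class II genes (-0.30), 21 inflammation genes (-0.13), 35 genes of the unfolded protein response (0.03), 25 cytosolic chaperones (-0.14), 28 cell cycle genes (-0.04), 43 autophagy and sirtuin genes (-0.10), 29 one-carbon genes (0.06), 75 respiratory chain genes (0.08) and 32 proteasome genes (0.01). Summed over these lists, 49 of 374 members tested had an unadjusted p under 0.05, 19 higher and 30 lower. Over all genes tested it was 1943 of 12315, a larger share. The DESeq2 Wald test called 2 higher and 7 lower on these lists, and its count over all genes is given below. In removals of 1 library, 1 inflammation gene was called lower without control liver 1095 and 1 gene of the unfolded protein response without lard liver 1130. Among the members of smallest p, Gabarapl1, an autophagosome protein, had a log2 fold change of -0.60 ± 0.13 (adjusted p = 0.0553), Rsad2, the antiviral viperin, of -0.85 ± 0.19 (adjusted p = 0.066), and Saa4, a serum amyloid A, of -0.63 ± 0.15 (adjusted p = 0.0791). Cth, the transsulfuration enzyme cystathionine gamma-lyase, was at 0.38 ± 0.09 (adjusted p = 0.074). It had 316, 307, 317 and 290.0 CPM in lard livers, against 228, 244 and 233 CPM in control livers. These groups did not overlap, which held for 14.5% of all genes tested. Ribosomal protein genes gave no call either, yet all 78 tested had a log2 fold change above 0, with a median of 0.19. Of these 13 had an unadjusted p under 0.05, a share near that of all genes tested. The DESeq2 Wald test called 2 higher, and edgeR called 1 higher without control liver 1120. Per library, their mean log2 CPM was 7.53, 7.41, 7.47 and 7.40 in lard livers, against 7.11, 7.41 and 7.24 in control livers. Control liver 1120 reached the lowest lard livers. In these lists a missed threshold does not show that the levels were equal.

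Levels of the same genes in the other restricted diets were set beside these, with 4 fish livers and 4 soy livers. The comparisons of restricted diets with control share the control livers, and those with lard share the lard livers, so their results are not independent. Against fish livers, 136 of 12322 genes passed (1.1%), 77 higher (0.625%) and 59 lower (0.479%) in lard livers, with a median log2 fold change of -0.006. That count was 8 without lard liver 1100, 34 without lard liver 1101, 73 without lard liver 1130, 27 without fish liver 1067, 59 without fish liver 1123, 10 without fish liver 1124 and 258 without fish liver 1125. Fish liver 1123 had skeletal muscle markers at 3147 CPM, where the other fish livers had 202 to 362 CPM, and fish liver 1124 had Kupffer cell and macrophage markers at 1009.6 CPM, where the other fish livers had 494 to 576 CPM. The count without each of these livers is given above, and what part the markers had was not tested otherwise. With exon read totals as library sizes it was 318, of which 63 were higher and 255 lower. Against soy livers, 0 of 12202 genes passed the edgeR test (0%), with 1155 at an unadjusted p under 0.05 and 9 called by DESeq2. Soy livers 1073 and 1159 stood apart from the other 13 livers on the first principal component, with scores of 69.0 and 54.5 where all others lay between -18.2 and -2.01. Without both of them 0 genes passed as well.

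The sex-biased genes named above did not pass in lard against fish livers or in lard against soy livers, which does not show that their levels were equal. Of 40 female-biased genes tested in lard against fish livers 2 were higher and 2 lower, namely Apoa4, Cyp17a1, Serpinb1a and Vldlr. Over all genes tested in that contrast 0.625% were called higher and 0.479% lower. Cyp2b13 had 132 ± 73.5 CPM in lard livers, 167 ± 142 CPM in fish livers, 215 ± 164 CPM in soy livers (SD, n = 4 each) and 0.916 ± 0.668 CPM in control livers (SD, n = 3). Its log2 fold change was -0.34 ± 0.65 (adjusted p = 0.819) for lard over fish livers and -0.72 ± 0.69 (adjusted p = 0.651) for lard over soy livers. Mup20 had 267 ± 86.4 CPM in lard livers, 680.2 ± 562 CPM in fish livers, 453 ± 327 CPM in soy livers (SD, n = 4 each) and 2378 ± 311 CPM in control livers (SD, n = 3). Fish livers varied most, as fish liver 1067 held 1469 CPM and the other fish livers 216 to 687 CPM, and the log2 fold change of lard over fish livers was -1.35 ± 0.52 (adjusted p = 0.222). Summed Mup levels were 6327 ± 2867 CPM in lard livers, 7999 ± 4316 CPM in fish livers, 6777 ± 2440 CPM in soy livers (SD, n = 4 each) and 18647 ± 2697 CPM in control livers (SD, n = 3). Each against control, 166 genes passed in lard (1.35%), 78 in fish (0.623%) and 31 in soy livers (0.25%). In fish livers 0.176% were higher and 0.447% lower, and in soy livers 0.0323% were higher and 0.218% lower. The male-biased list had 13 lower genes in lard, 2 in fish and 12 in soy livers, each against control. The female-biased list had 12 higher genes in lard, 2 (with 1 lower) in fish and 4 in soy livers, each against control.

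Several metabolic genes did separate lard from fish livers. In this contrast only the total count, given above, was followed when single libraries were left out. The stability of its single-gene and list calls was not examined. Elovl6 had 311, 494, 339 and 349.7 CPM in lard livers, 80.03, 113, 87.6 and 196 CPM in fish livers, 152, 193, 227 and 237 CPM in soy livers and 142, 204 and 197 CPM in control livers. Each lard liver exceeded every liver of the other diets, and the log2 fold change over fish livers was 1.65 ± 0.27 (adjusted p = 0.0332). Hsd17b7 had 95.8, 113, 116 and 107 CPM in lard livers, 64.8, 55.7, 58.2 and 83.7 CPM in fish livers, 70.6, 52.9, 84.3 and 46.1 CPM in soy livers and 53.00, 63.9 and 61.5 CPM in control livers, again with lard livers above all others. The log2 fold change over fish livers was 0.71 ± 0.13 (adjusted p = 0.0406) and over soy livers 0.76 ± 0.19 (adjusted p = 0.505). Got1 was at 1.26 ± 0.14 (adjusted p = 0.00831) and Cps1 at 0.71 ± 0.14 (adjusted p = 0.047), both for lard over fish livers. The same contrast gave -0.92 ± 0.12 (adjusted p = 0.0121) for Abcc3, -0.64 ± 0.11 (adjusted p = 0.0399) for Gclc and -2.08 ± 0.32 (adjusted p = 0.0279) for Slc35f2.

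Lepr, Gadd45g and Abcc3 differed in how the other diets stood. Lepr had 94.5 ± 32.9 CPM in lard livers, 64.3 ± 21.6 CPM in fish livers, 76.4 ± 31.2 CPM in soy livers (SD, n = 4 each) and 16.8 ± 3.91 CPM in control livers (SD, n = 3), and lard over fish livers was 0.55 ± 0.30 (adjusted p = 0.367). For Lepr all 12 restricted livers lay above all 3 control livers. Gadd45g had 60.3, 25.4, 24.4 and 40.6 CPM in lard livers, 2.095, 5.08, 7.87 and 15.3 CPM in fish livers, 30.04, 30.9, 3.13 and 83.05 CPM in soy livers and 4.22, 5.07 and 5.89 CPM in control livers. Soy liver 1141 was below the control livers and the other soy livers were within or above the range of lard livers, while lard over fish livers was 2.30 ± 0.50 (adjusted p = 0.0643). Abcc3 had 166 ± 24.6 CPM in lard livers, 314 ± 28.2 CPM in fish livers, 146 ± 37.1 CPM in soy livers (SD, n = 4 each) and 285 ± 13.3 CPM in control livers (SD, n = 3).

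Genes of fatty acid synthesis were higher in lard than in fish livers. In lard against fish livers 10 of 33 fatty acid and triglyceride synthesis genes were higher and 0 lower, with a median of 0.71, beside 0.625% of all genes called higher. The 10 were Pklr, Thrsp, Acly, Acacb, Elovl6, Acaca, Elovl2, Tkfc, Fads1 and Fasn. Whether these calls hold when single libraries are left out was not examined. In lard against control livers the same list had 2 higher genes and a median of 0.31, and of the 10 only Elovl6 passed there. The cholesterol synthesis list had 2 higher genes of 27 in lard against fish livers, with a median of 0.59, and 0 in lard against soy livers, with a median of 0.36. Among PPARalpha targets, Crot had 289 ± 80.8 CPM in lard livers, 567 ± 86.9 CPM in fish livers, 314 ± 107 CPM in soy livers (SD, n = 4 each) and 608 ± 172 CPM in control livers (SD, n = 3), and it passed in lard against fish livers at -0.97 ± 0.18 (adjusted p = 0.0431). Differences between these medians were not tested.

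**Figure D4:**
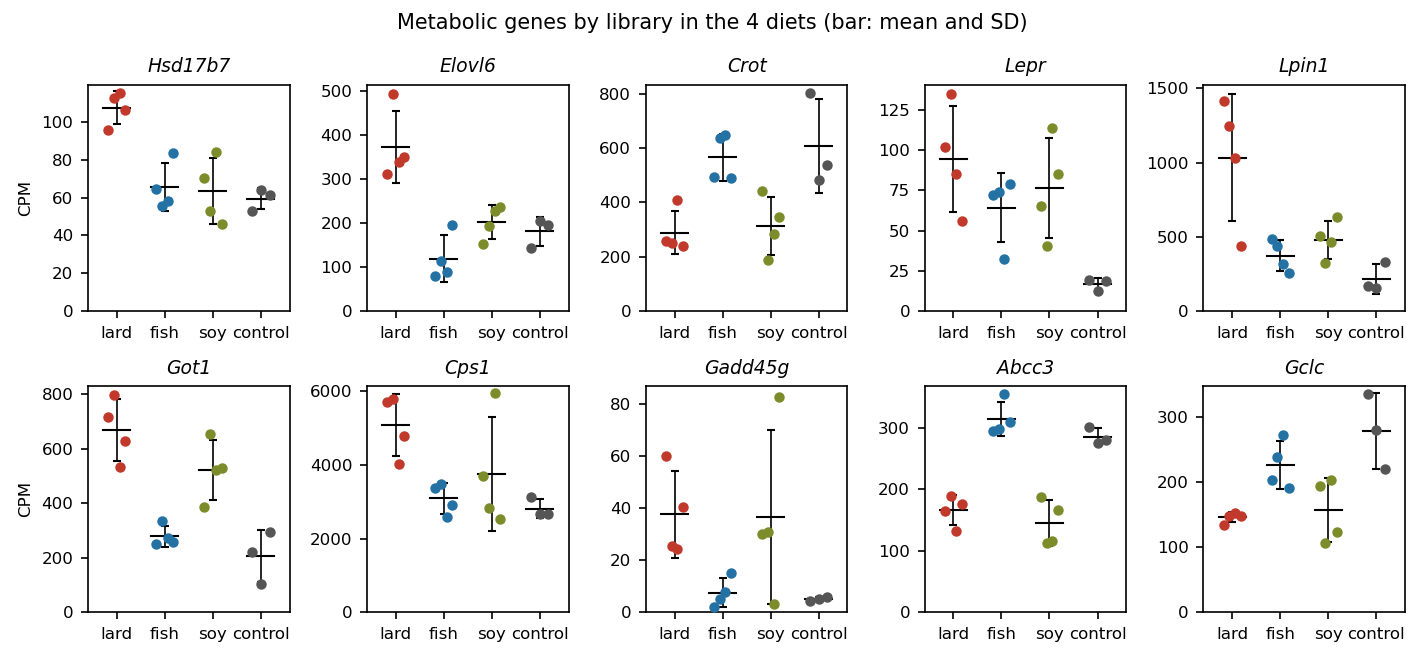
TMM-normalised CPM (y axes from 0) of 10 metabolic genes in lard, fish, soy and control livers, with 1 point per library, a bar at the mean and whiskers of 1 SD. Hsd17b7 and Elovl6 are higher in each lard liver than in any liver of the other diets, Lepr is lowest in the 3 control livers, and Abcc3 is at 132 to 189.8 CPM in lard livers.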

How the data were processed

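Liver RNA was extracted with Trizol and made into TruSeq libraries, per the labels' protocols. The deposited tables hold, per the file headers, read counts for each gene and library (total and unique on exons, and on the whole gene), and the authors' RPKM, which was not used for any result. The submitters' processing notes name GRCm38 and FastQC, and no source used here gives the aligner, the counting tool, the annotation or the strand setting. Gene symbols came from GENCODE M21 by Ensembl identifier for 36345 of 38124 genes.

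Total exon reads of the compared diets alone were tested with edgeR 4.0.16 in R 4.3.3, after filterByExpr with a minimum count of 10 and TMM normalisation, by the quasi-likelihood F test and with Benjamini-Hochberg adjustment over all genes tested, with a threshold of 0.05. Exon reads numbered 11315231 to 21278699 per library. SE is the log2 fold change divided by the square root of F, in absolute size. CPM are scaled by TMM factors of all 15 livers. The script for the fits was tested on simulated data. Libraries were grouped by their tissue and diet labels, each library is a different mouse, and no 2 libraries of a group agreed within sampling noise (chi-square per degree of freedom of at least 17.6).

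The comparison, the lists and the markers were chosen with earlier results of these data known, so counts per list are descriptions. Genes were named by a rule: the 12 largest rises and 12 largest falls past the threshold with at least 5 CPM in the higher group and no overlap, up to 3 members per list and direction by smallest p, and the member of smallest p where none passed. This gave 59 genes, of which the text names a part, and results of some genes are not reported here. Other genes are named as chosen after their values were seen or as members called in another contrast. Alternatives were DESeq2 1.42.0 (size factors, Wald test), limma-voom (limma 3.58.1), other filters, fits with more livers, the library number as a block, unique reads, a 1.5-fold null and leaving out each library. Fits without soy livers 1073 and 1159 and with exon read totals as library sizes were added after the data were seen.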

Additional observations from a re-analysis of the deposited data

Results flagged for a closer look

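Of 103 groups of 4 livers examined among the named genes, lists and markers, 9 held 1 lard liver far from the other 3. The cut-off would mark about 1 in 20 independent groups of normally distributed values. These groups share genes, and many of the genes were chosen by the test, so the count cannot be set against that rate. In lard liver 1102, Hamp2 was at 51.8 CPM while the nearest other lard liver was at 114 CPM, Mup15 was at 3.97 CPM against 1.23 CPM in the nearest, and Crot was at 409.6 CPM against 256 CPM in the nearest. In lard liver 1130, Sult2a7 was at 23.2 CPM and the nearest at 9.24 CPM, Osbpl3 was at 8.21 CPM and the nearest at 5.11 CPM, and the summed erythroid markers were at 2363 CPM and the nearest at 420.0 CPM. In lard liver 1101, C9 was at 60.6 CPM and the nearest at 84.6 CPM, and the mean log2 CPM of the complement list was 7.74, with the nearest at 8.05. In lard liver 1100, Saa4 was at 187 CPM and the nearest at 138 CPM. For Hamp2, Mup15, Sult2a7, Osbpl3 and C9, which passed in lard against control livers, the outlying lard liver still lay on the same side of all 3 control livers as the other lard livers.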

How the results depend on the processing

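With 4 lard and 3 control livers, the number of genes past the threshold moved with the test and the libraries. In lard against control livers (166 genes) it was 536 by the DESeq2 Wald test, 65 when all 15 livers shared 1 fit and 22 against a 1.5-fold change, and it ranged from 26 to 200 when 1 library was left out. It stayed within 1.5 times of 166 with DESeq2 size factors, no filter, unique reads, limma-voom, a 5 CPM minimum and the control, lard and fish livers in 1 fit. In lard against fish livers (136 genes) it was 585 by the DESeq2 Wald test, 26 when all 15 livers shared 1 fit and 318 with exon read totals as library sizes, and it ranged from 8 to 258 when 1 library was left out. In lard against soy livers (0 genes) it was 9 by the DESeq2 Wald test and 0 in each removal. The cause of these shifts was not tested, and each removal also left fewer libraries to compare.

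With the library number of the descriptions as a replicate block, 39 genes passed in lard against control livers, 31 of them among the 166, 75 in lard against fish livers and 0 in lard against soy livers. In lard against control livers, number 42 holds lard liver 1100 alone, so the block leaves the contrast to the other livers. Deviations of lard and control livers with the same number correlated at -0.12, 0.04 and 0.03, and those with different numbers at -0.16 to 0.10. So few pairs cannot show whether the number marks a batch. The median log2 fold change of the collagen and matrix list was -0.15 and ranged from -0.20 to 0.00603 when 1 library was left out, the highest without control liver 1121. Over the alternatives, the 46 named genes that passed in lard against control livers kept their call in 585 values and lost it in 238, the 13 that did not pass stayed short of the threshold in 205 values and passed in 26, and 0 values changed sign.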

Other observations

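Several genes outside the pathway lists were among the most stable changes, and they were chosen after their values were seen. Of the 166 genes past the threshold in lard against control livers, 49 were on a pathway list and 117 on none. Of the 12 that passed in each removal and each other setting, 4 were neither on a list nor among the largest changes. Cyp46a1, a cholesterol 24-hydroxylase best known from brain (ENSMUSG00000021259, chromosome 12, 108334377 to 108362231), had 8.598, 8.68, 7.17 and 7.13 CPM in lard livers, against 27.5, 34.6 and 23.6 CPM in control livers, a log2 fold change of -1.85 ± 0.15 (adjusted p = 0.00124) by edgeR. Srd5a1, a steroid 5-alpha-reductase (ENSMUSG00000021594, chromosome 13, 69573449 to 69611442), had 6.58, 6.44, 7.95 and 9.39 CPM in lard livers, against 34.3, 22.1 and 19.7 CPM in control livers, a log2 fold change of -1.76 ± 0.20 (adjusted p = 0.0069). The groups of both genes stood well apart. Of the Srd5a1 reads 54.5% mapped uniquely.

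Cldn1, the tight junction protein claudin-1 (ENSMUSG00000022512, chromosome 16, 26356642 to 26371841), had 8.55, 10.6, 10.8 and 13.5 CPM in lard livers, against 34.8, 33.6 and 24.7 CPM in control livers, a log2 fold change of -1.53 ± 0.16 (adjusted p = 0.00432) by edgeR. Eps8l2, an actin-regulating protein (ENSMUSG00000025504, chromosome 7, 141338880 to 141363020), had 16.7, 17.3, 19.6 and 15.3 CPM in lard livers, against 58.2, 37.2 and 41.9 CPM in control livers, a log2 fold change of -1.41 ± 0.15 (adjusted p = 0.00433). Exons of B230206H07Rik on the opposite strand cover 32.2% of its exon bases. In lard against fish livers Eps8l2 passed as well, at -0.85 ± 0.11 (adjusted p = 0.0121), while Cyp46a1 stood at -0.16 ± 0.15 (adjusted p = 0.597), Srd5a1 at 0.23 ± 0.27 (adjusted p = 0.706) and Cldn1 at -0.19 ± 0.17 (adjusted p = 0.591).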
